A study of Homo sapiens with 6 samples.

Results

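The genes described here are the nuclear-encoded subunits of the respiratory chain and ATP synthase, the machinery that makes ATP from oxygen in mitochondria. They were chosen by symbol among protein-coding genes outside the mitochondrial chromosome: NDUFA, NDUFB, NDUFC, NDUFS and NDUFV genes for complex I, SDHA to SDHD for complex II, UQCR genes for complex III, COX4 to COX8 genes for complex IV and ATP5 genes for complex V. Of the 44591 genes in the count tables, 89 met this rule. They comprised 37 genes of complex I, 4 of complex II, 9 of complex III, 19 of complex IV and 16 of complex V. NDUFA4 and NDUFA4L2 were counted with complex IV, where NDUFA4 is known to reside. COX7A2L, a factor that joins complexes III and IV, was also counted with complex IV and among the subunit genes. The rule also took in 2 genes that were assigned to no complex (ATP5S and ATP5SL) and 2 read-through genes that join a subunit gene to its neighbour (ATP5J2-PTCD1 and NDUFC2-KCTD14). RNA was sequenced from A2780, an established human ovarian cancer cell line, as 3 untreated libraries and 3 libraries from cells given recombinant CRMP2 (r-CRMP2) at 40 ng/ml, all collected at 48 h. CRMP2 is a microtubule-associated protein, studied here as a factor that cancer-associated fibroblasts release, and the comparison asked how ovarian cancer cells respond to it. The labels name no genetic change in either group, and a single cell line was used.

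Complexes I to IV pass electrons from NADH and succinate to oxygen and, at complexes I, III and IV, pump protons across the inner mitochondrial membrane, and complex V uses the proton gradient to make ATP. Complex II is encoded wholly in the nucleus, whereas each of the other complexes also has subunits encoded in mitochondrial DNA. Some subunits exist as pairs of related genes of which 1 is used in hypoxia or in particular tissues: COX4I2 can replace COX4I1, COX7A1 replaces COX7A2 in heart and muscle, and NDUFA4L2, a relative of NDUFA4, is a known target of the hypoxia-inducible factor HIF-1.

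The libraries held between 21888530 and 25711353 counts, of which the 89 genes took 0.913 to 0.937% untreated and 0.815 to 0.888% with r-CRMP2. Levels of single genes are given as CPM, the count relative to library size scaled with TMM factors, and levels compared between genes as TPM, which takes gene length into account. The epithelial keratins KRT8 and KRT18 lay between 1218 and 1494 CPM over both genes and all libraries, whereas CDH1 and the ovarian carcinoma marker WT1 reached at most 0.180 and 0.108 CPM, KRT19 1.97 CPM, PAX8 4.40 CPM, EPCAM 6.27 CPM and MUC16 50.4 CPM. The 8 fibroblast markers, led by COL1A1, summed to 526 to 604 CPM untreated and 454 to 473 CPM with r-CRMP2. The leukocyte markers summed to 21.7 to 26.2 and 72.0 to 78.1 CPM, nearly all of it CD68, while PTPRC and CD3E reached at most 0.202 and 0.0719 CPM, and the 3 endothelial markers summed to at most 7.02 CPM. Their part in the members' values was not tested. The labels number the replicates but do not say how they were grown, so p-values measure the spread between these libraries, and in bulk RNA fewer cells expressing a gene and less RNA per cell cannot be told apart.

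One library stood apart for these genes. Within the r-CRMP2 group, replicate 2 was the highest of the 3 libraries for 81 of the 83 tested members, against 37.1% of all genes tested. Its members lay a median of 0.13 above the group mean on the log2 scale, whereas replicates 1 and 3 lay at -0.085 and -0.050. The same library was also high for short genes in general: over all genes tested, its median deviation went from 0.088 in the shortest of 5 length bins to -0.080 in the longest, and 53 of the 83 members belonged to the shortest bin. The part of gene length in the members' values was tested only through a fit with a length offset. Where leaving out replicate 2 changed a call, this is stated beside the gene or its complex.

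**Figure D1:**
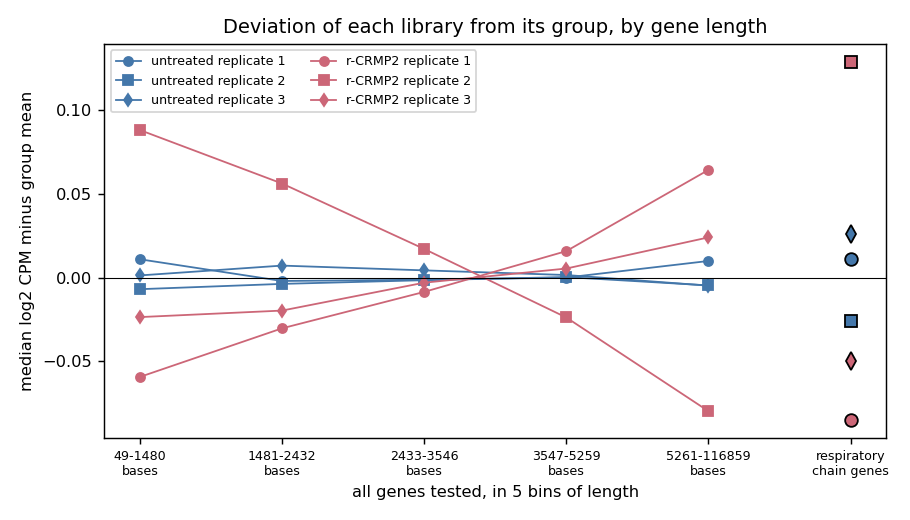
Median difference on the log2 CPM scale (y axis) between each library and its group mean, for all genes tested in 5 bins of gene length in bases (x axis) and for the 83 respiratory chain genes (right, black edges). r-CRMP2 replicate 2 lay at 0.088 for the shortest bin and at 0.13 for the respiratory chain genes, above the other libraries.

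Of the 89 genes, 83 passed the filter on low counts and were tested. At an adjusted p under 0.05 (edgeR quasi-likelihood test, Benjamini-Hochberg over 16222 genes), 17 members were higher with r-CRMP2 and 10 were lower. Among the 79 tested genes assigned to the 5 complexes, 17 were higher and 7 lower (30.4% called, 21.5% higher and 8.86% lower). The remaining lower members were ATP5S and the read-through genes ATP5J2-PTCD1 and NDUFC2-KCTD14, whose intervals overlap ATP5J2 and NDUFC2. Over all genes tested 28.2% were higher, 30.1% lower and 58.2% called in either direction, whereas 32.5% of the tested members were called, 20.5% higher and 12.05% lower. Members with a mean of at least 10 CPM gave nearly the same share, with 17 higher and 9 lower of 80 (32.5%), against 67.4% of all genes at that level. NDUFA4L2 was the single member past an absolute log2 fold change of 1, which together with the adjusted p was reached by 14% of all genes, and 66 of 83 members lay within 0.25 of 0 on the log2 scale (79.5%, against 34.8% of all genes). The members' median log2 fold change was 0.027, and the median over all genes was -0.026.

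The direction of the whole set depended on how libraries were scaled. When libraries were scaled by their totals only, not by the TMM factors, which ranged from 0.878 to 1.12, the median of all genes moved to -0.34 and that of the members to -0.29, and 3 members were then called higher and 63 lower. Relative to the median of all genes, the members lay at 0.054 with TMM and at 0.052 with library size alone. Changes below are given on the TMM scale. Without r-CRMP2 replicate 2, 10 members were higher and 22 lower, with a median of -0.044. All 10 members that were lower with every library remained so, and 12 more joined them. Of the 17 higher members 10 remained, and ATP5E, ATP5O, COX5B, COX7A2, COX8A, NDUFC1 and UQCRH were lost. When any 1 of the 6 libraries was left out, 15 of the 27 calls remained, and each of the other 12 (those 7 with ATP5J, ATP5J2, ATP5S, NDUFB6 and UQCRB) was lost without at least 1 library. With an offset for gene length, 12 members were higher and 23 lower, while over all genes 5263 were higher and 4375 lower. All 10 lower members remained, and 10 of the 17 higher ones did, with ATP5E, ATP5O, COX5B, COX7A2, COX7C, COX8A and UQCRH lost.

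**Figure D2:**
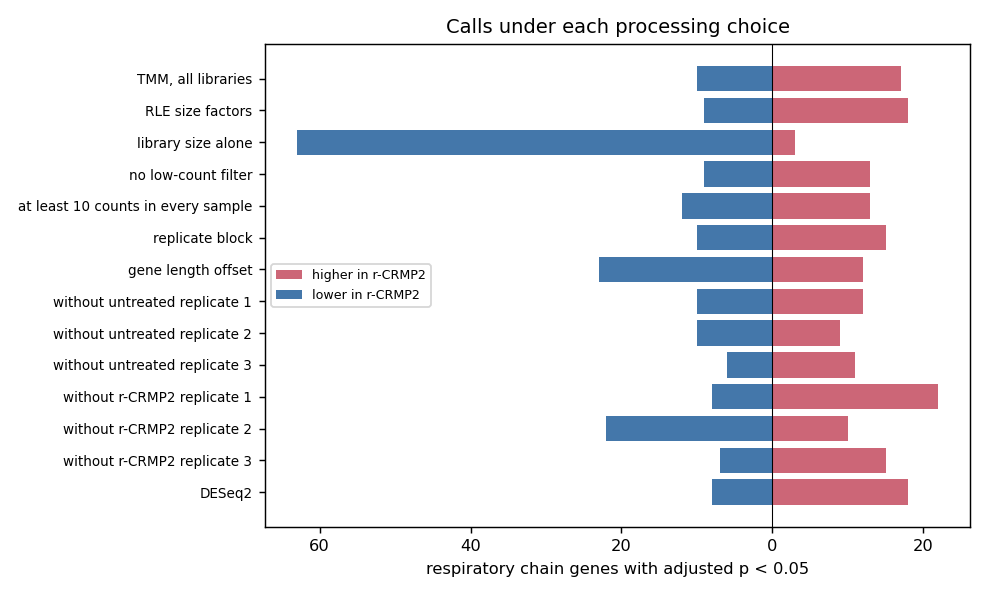
Number of respiratory chain genes with an adjusted p under 0.05 (x axis), higher (right) or lower (left) with r-CRMP2, for the TMM fit with all libraries and 13 other processing choices (y axis). The TMM fit gave 17 higher and 10 lower, and library size alone gave 3 higher and 63 lower.

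**Figure D3:**
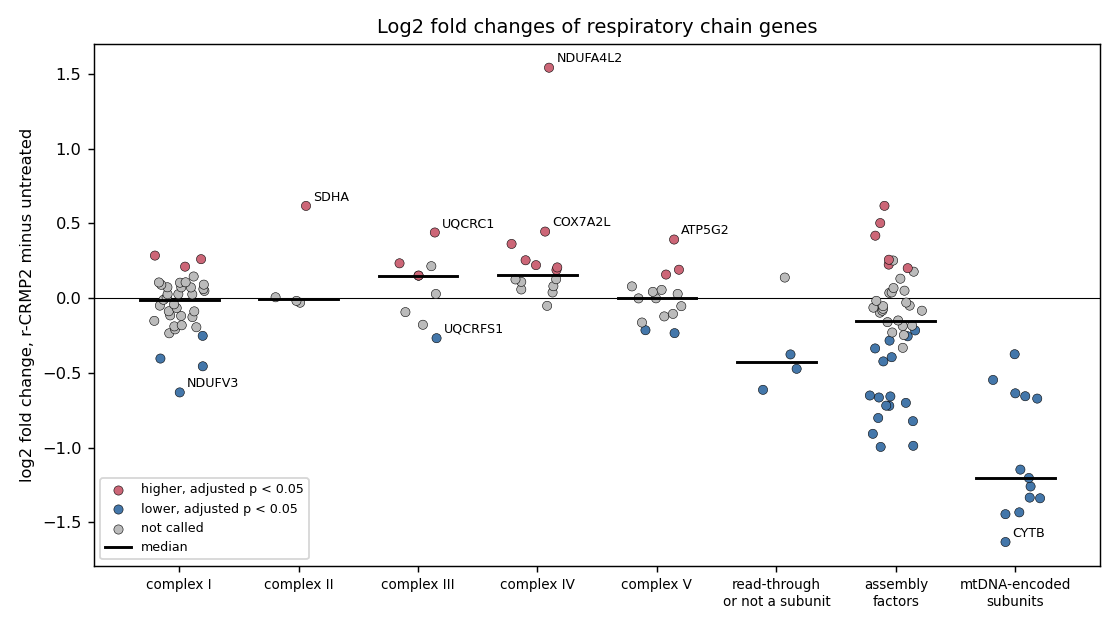
Log2 fold change, r-CRMP2 minus untreated (y axis), of each tested gene by complex, beside assembly factors and mtDNA-encoded subunits (x axis). Colours mark genes with an adjusted p under 0.05, and black lines are medians. Most nuclear-encoded subunits lay near 0, NDUFA4L2 stood at 1.54, and the 13 mtDNA-encoded subunits lay between -1.63 and -0.38.

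The largest change was in the NDUFA4 pair. NDUFA4L2 (chr12:57628686-57634545, minus strand, hg19) was at 175, 166 and 141 CPM untreated and 438, 512 and 455 CPM with r-CRMP2. All 3 treated libraries lay above all untreated ones, a 2.91-fold rise (log2 fold change 1.54, SE 0.11, edgeR adjusted p = 1.0e-11), and without replicate 2 the log2 fold change was 1.48 (edgeR adjusted p = 1.2e-11). The deposited interval of NDUFA4L2 overlaps SHMT2 on the opposite strand, and in all 9 called members overlap a gene on the opposite strand. Any use of strand in counting is not given, and the part of reads from such genes was not tested. NDUFA4 (chr7:10971580-10979813, minus strand, hg19), the subunit found in the complex, was at 38.1, 38.7 and 43.3 CPM untreated and 36.7, 42.8 and 36.5 CPM with r-CRMP2. Its groups overlapped (log2 fold change -0.052, SE 0.10, edgeR adjusted p = 0.607). Per length, NDUFA4L2 was already the more abundant of the pair, with a TPM ratio to NDUFA4 of 7.97, 7.42 and 5.66 in the untreated libraries, and the ratio was 20.7, 20.7 and 21.6 with r-CRMP2. On the log2 CPM scale the difference between both genes changed by 1.596 (exact two-sided permutation test, p = 0.1, which is the smallest p that 3 against 3 libraries can give, and p = 0.2 adjusted over the 2 pairs tested).

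The promoters of both genes of this pair are shown because 1 of them rose and is a known HIF-1 target while the other was not called. Each window of 300 bases, from 250 before the annotated start to 50 after it, is RefSeq sequence of build GRCh38.p14 written 5′ to 3′ on the gene's strand. RefSeq lists them under the newer symbols COXFA4L2 and COXFA4. Capitals mark the core of the HIF binding motif (ACGTG or GCGTG, either strand). The NDUFA4L2 window lies at chr12:57240713-57241012, minus strand, and the NDUFA4 window at chr7:10940104-10940403, minus strand.
NDUFA4L2: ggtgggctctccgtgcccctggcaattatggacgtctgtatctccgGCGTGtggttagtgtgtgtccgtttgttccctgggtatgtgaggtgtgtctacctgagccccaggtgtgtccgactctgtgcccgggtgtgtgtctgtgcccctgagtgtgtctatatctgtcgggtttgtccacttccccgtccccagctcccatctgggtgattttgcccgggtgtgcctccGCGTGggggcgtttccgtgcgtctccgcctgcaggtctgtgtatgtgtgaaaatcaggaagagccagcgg
NDUFA4: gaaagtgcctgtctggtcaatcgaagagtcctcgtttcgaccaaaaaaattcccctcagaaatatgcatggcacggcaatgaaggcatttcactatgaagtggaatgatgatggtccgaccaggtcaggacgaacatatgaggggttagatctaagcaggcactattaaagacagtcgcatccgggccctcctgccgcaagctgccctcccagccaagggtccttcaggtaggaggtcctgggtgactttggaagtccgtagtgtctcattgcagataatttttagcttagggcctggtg

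The NDUFA4L2 window held the HIF core at 2 places, from -204 to -200 and from -20 to -16 relative to the annotated start, and the NDUFA4 window held these letters nowhere. The core is short and common: 40 of 69 subunit genes matched to RefSeq held it (58.0%), against 55.9% of 15842 protein-coding promoters of the same length.

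In the other 2 pairs the second gene stayed at or near the limit of detection. COX4I1 (chr16:85833173-85840609, plus strand, hg19), the largest nuclear-encoded subunit of cytochrome c oxidase, was at 159, 152 and 158 CPM untreated and 180.3, 219 and 204 CPM with r-CRMP2. Every treated library was above every untreated one (log2 fold change 0.36, SE 0.09, edgeR adjusted p = 1.8e-04), and without replicate 2 the log2 fold change was 0.31 (edgeR adjusted p = 4.4e-04). COX4I1 lost its call with library size alone, at a log2 fold change of 0.050. Its hypoxia-associated relative COX4I2 had between 0 and 1 counts in each of the 6 libraries, at or under the floor of 3 counts (0.117 to 0.137 CPM), so no fold was computed and a low level of expression was not detectable at this depth.

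COX7A2 was at 55.2, 55.2 and 55.6 CPM untreated and 58.5, 75.2 and 59.9 CPM with r-CRMP2, and the values did not overlap although replicate 2 was well above the others (log2 fold change 0.22, SE 0.12, edgeR adjusted p = 0.0281). Without replicate 2 the log2 fold change was 0.11 (edgeR adjusted p = 0.155), and the COX7A2 call was kept in 7 of the 13 other fits. COX7A1, the heart and muscle form, had 4, 10 and 3 counts untreated and 6, 1 and 3 counts with r-CRMP2, and the ratio of the summed counts, each relative to the summed TMM-scaled library sizes of its group, was 0.731 (95% exact interval 0.299 to 1.69, for counting error only). The log2 difference between COX7A1 and COX7A2 changed by -0.56 (exact two-sided permutation test, p = 0.5, and p = 0.5 adjusted over the 2 pairs).

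**Figure D4:**
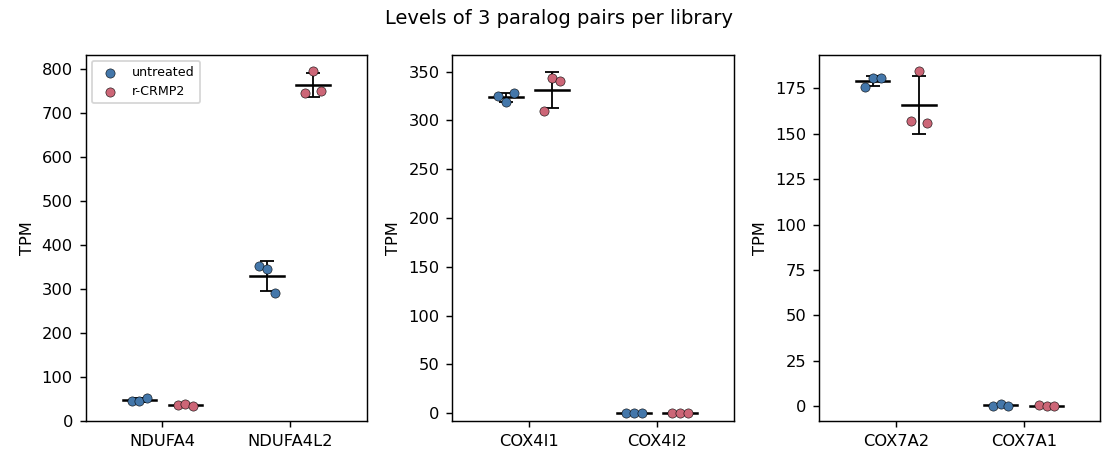
TPM (y axis) of both genes of 3 paralog pairs (x axis) in each library, with group mean and SD (n = 3). NDUFA4L2 was above NDUFA4 in every library and higher with r-CRMP2, and COX4I2 and COX7A1 lay near 0 beside COX4I1 and COX7A2. TPM is scaled to the total of each library without TMM factors, so the TPM of COX7A2 was lower with r-CRMP2 on average while its CPM was higher.

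Complex I, which oxidises NADH, had few calls with all libraries on the TMM scale. The median log2 fold change of its 37 genes, all tested, was -0.012. Of these genes, 3 were higher and 4 lower (18.9% called, against 58.2% of all genes tested). Library size alone gave 0 higher and 31 lower. Without replicate 2 there were 2 higher and 11 lower, and with the length offset 3 higher and 13 lower. The catalytic core carries the flavin and the iron-sulphur clusters. The 6 core subunits described here gave no call by edgeR or DESeq2, and 0 of them had an unadjusted edgeR p under 0.05. NDUFV1, the flavoprotein that takes electrons from NADH, was at 150.2, 152 and 153 CPM untreated and 152, 172 and 160.4 CPM with r-CRMP2. NDUFS1, the largest iron-sulphur subunit, was at 98.4, 93.7 and 102 CPM untreated and 91.6, 94.1 and 94.7 CPM with r-CRMP2. The groups overlapped for both (log2 fold change 0.089, edgeR adjusted p = 0.236 for NDUFV1, and log2 fold change -0.067, edgeR adjusted p = 0.371 for NDUFS1). The log2 fold changes of further core subunits were 0.026 for NDUFV2, -0.012 for NDUFS3, -0.042 for NDUFS7 and 0.11 for NDUFS8. Among the 5 genes of the quinone-reducing module 0 were called by edgeR or by DESeq2, and 0 had an unadjusted edgeR p under 0.05, while 1 of the 8 genes of the NADH-oxidising module was called.

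That 1 gene was NDUFV3 (chr21:44313378-44329773, plus strand, hg19), an accessory subunit next to the flavoprotein and the largest fall among the members. It was at 22.1, 24.4 and 20.5 CPM untreated and 14.7, 14.9 and 13.6 CPM with r-CRMP2. Every treated library lay below every untreated one (log2 fold change -0.63, SE 0.08, edgeR adjusted p = 1.1e-05), and without replicate 2 the log2 fold change was -0.65 (edgeR adjusted p = 2.8e-05). The other calls were all in the membrane arm, where the accessory subunits NDUFC2, NDUFB9 and NDUFB6 fell and NDUFA10, NDUFB4 and NDUFC1 rose. NDUFC2 was at 47.6, 48.5 and 50.2 CPM untreated and 32.6, 38.6 and 35.5 CPM with r-CRMP2, with no overlap between groups (log2 fold change -0.46, SE 0.07, edgeR adjusted p = 3.7e-05). Its deposited interval overlaps the read-through gene NDUFC2-KCTD14, which had nearly the same level (48.9, 48.7 and 49.6 CPM untreated and 36.1, 40.1 and 37.1 CPM with r-CRMP2) and also fell (log2 fold change -0.38, SE 0.05, edgeR adjusted p = 1.4e-04), so reads of both cannot be separated with certainty. NDUFB9 was at 63.0, 59.9 and 66.5 CPM untreated and 43.5, 54.6 and 45.2 CPM with r-CRMP2. Its groups did not overlap, although replicate 2 was closest to the untreated libraries (log2 fold change -0.40, SE 0.11, edgeR adjusted p = 2.9e-04).

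NDUFB6 fell less (log2 fold change -0.25, SE 0.12, edgeR adjusted p = 0.0472), and its highest treated library, at 16.18 CPM, was just under the lowest untreated one, at 16.22 CPM. The NDUFB6 call was kept in 6 of the 13 other fits and was lost with DESeq2. NDUFA10 had the highest log2 fold change of complex I. It was at 92.9, 99.0 and 94.0 CPM untreated and 114, 120.1 and 114 CPM with r-CRMP2, and the groups were apart (log2 fold change 0.28, SE 0.04, edgeR adjusted p = 5.7e-04). NDUFB4 followed (log2 fold change 0.26, SE 0.09, edgeR adjusted p = 0.00540), and NDUFC1 rose by a smaller amount (log2 fold change 0.21, SE 0.11, edgeR adjusted p = 0.0414) and, without replicate 2, stood at 0.11 (edgeR adjusted p = 0.209). The NDUFA10, NDUFB4 and NDUFC1 calls were lost with library size alone, and the NDUFC1 call was kept in 6 of the 13 other fits. Complex I transcripts summed to 5279.5 ± 79.6 TPM untreated and 4085 ± 142 TPM with r-CRMP2 (SD, n = 3 each), a ratio of 0.774. On the TMM-scaled CPM the ratio was 0.996.

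**Figure D5:**
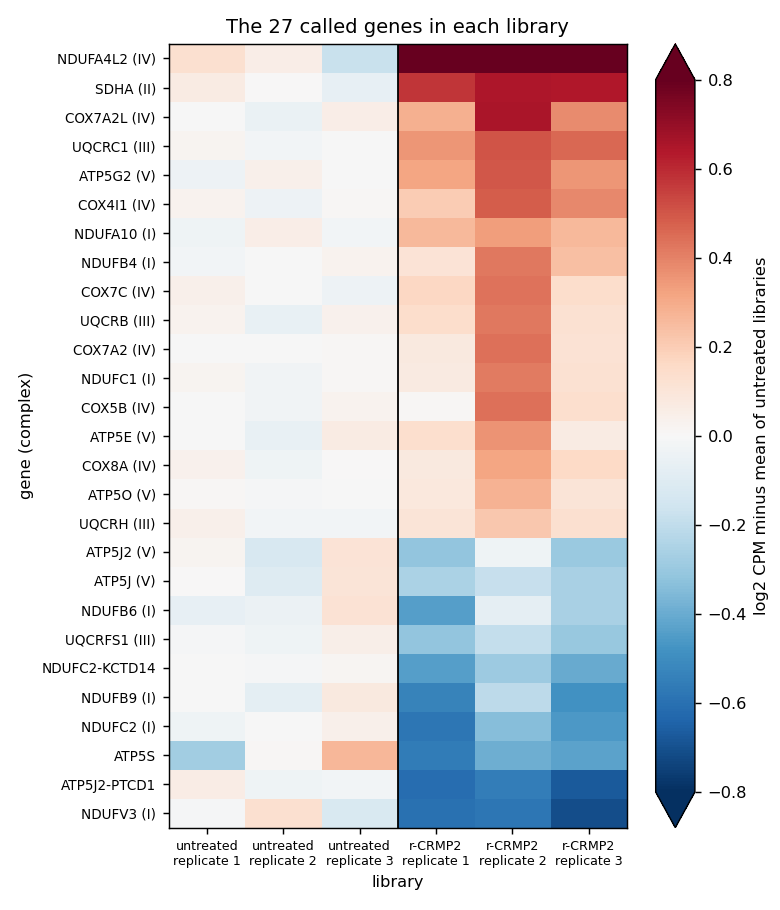
Log2 CPM minus the mean of the untreated libraries (colour) for the 27 called genes (y axis, with complex) in each library (x axis). The colour scale ends at 0.8 in each direction, which NDUFA4L2 exceeded in every r-CRMP2 library. r-CRMP2 replicate 2 was the highest of its group for nearly all genes, while NDUFA4L2, SDHA and UQCRC1 were high and NDUFV3 and ATP5J2-PTCD1 low in all 3 treated libraries.

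In complex II, succinate dehydrogenase, 1 of 4 subunits was called (25%, against 58.2% of all genes). Library size alone gave 1 higher and 3 lower, and SDHB, SDHC and SDHD were the lower ones. SDHA (chr5:218338-257197, plus strand, hg19), the flavoprotein that oxidises succinate, was at 762, 732 and 696 CPM untreated and 1083, 1140.0 and 1135 CPM with r-CRMP2. The treated libraries were all higher, by 1.53-fold (log2 fold change 0.62, SE 0.04, edgeR adjusted p = 8.7e-08), and without replicate 2 the log2 fold change was 0.61 (edgeR adjusted p = 3.1e-08). SDHB, the iron-sulphur subunit, was at 76.0, 64.8 and 79.3 CPM untreated and 70.3, 79.7 and 71.2 CPM with r-CRMP2. The membrane anchors SDHC and SDHD had log2 fold changes of -0.019 and -0.031, and the groups of SDHB, SDHC and SDHD overlapped (edgeR adjusted p = 0.958, 0.831 and 0.769). The TPM ratio of SDHA to SDHB was 4.14, 4.67 and 3.63 untreated and 6.37, 5.91 and 6.59 with r-CRMP2. Rows of SDHA pseudogenes held counts equal to 4.27% of the SDHA counts untreated and 4.25% with r-CRMP2. These shares do not bound how many reads were misassigned among the copies, as the counting tool is not given.

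Complex III, which passes electrons from ubiquinol to cytochrome c, had 3 genes higher and 1 lower of 9 (44.4% called, 58.2% over all genes). Its median log2 fold change was 0.15, and library size alone gave 1 higher and 6 lower. Without replicate 2 the balance turned to 2 higher and 3 lower, as UQCRH was lost and the small subunits UQCR10 and UQCR11 were called lower. UQCRC1 (chr3:48636432-48647098, minus strand, hg19), a core protein, was at 336, 325 and 330.4 CPM untreated and 422, 468 and 455 CPM with r-CRMP2. Treated libraries were all above untreated ones (log2 fold change 0.44, SE 0.05, edgeR adjusted p = 5.5e-06), and without replicate 2 the log2 fold change was 0.42 (edgeR adjusted p = 4.4e-06). Its partner UQCRC2 had values of 166, 166 and 168 CPM untreated and 171, 195 and 189.5 CPM with r-CRMP2, which also did not overlap but missed the threshold (log2 fold change 0.15, SE 0.06, edgeR adjusted p = 0.0502), and it was called higher with the length offset (log2 fold change 0.23, edgeR adjusted p = 0.00272). UQCRFS1 (chr19:29698167-29704136, minus strand, hg19), the Rieske iron-sulphur protein that carries electrons through the complex, fell. It was at 67.7, 66.5 and 70.3 CPM untreated and 54.9, 59.8 and 55.3 CPM with r-CRMP2, with every treated library below the untreated ones (log2 fold change -0.27, SE 0.05, edgeR adjusted p = 0.00170). Pseudogene rows of UQCRFS1 held 5.20% of its count untreated and 4.61% with r-CRMP2. The small subunits UQCRB (log2 fold change 0.23, edgeR adjusted p = 0.0115) and UQCRH (log2 fold change 0.15, edgeR adjusted p = 0.0406) were higher, and the UQCRH call was lost without replicate 2, where the log2 fold change was 0.13 (edgeR adjusted p = 0.0674). Of the 13 other fits, 11 kept the UQCRB call and 4 the UQCRH call. UQCRHL, a retrocopy of UQCRH, was near 1 CPM in every library and was not called (log2 fold change 0.21, edgeR adjusted p = 0.603).

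The promoters of SDHA and UQCRC1, the catalytic and core subunits that rose the most, are shown with the motifs of factors known to activate respiratory chain genes. The windows have the same build, length and orientation as those above. Capitals mark the motifs of NRF1 (GCGCNTGCG), of ETS factors such as GABPA (CGGAAG) and of YY1 (AAGATGG), on either strand. The SDHA window lies at chr5:218070-218369, plus strand, and the UQCRC1 window at chr3:48609597-48609896, minus strand.
SDHA: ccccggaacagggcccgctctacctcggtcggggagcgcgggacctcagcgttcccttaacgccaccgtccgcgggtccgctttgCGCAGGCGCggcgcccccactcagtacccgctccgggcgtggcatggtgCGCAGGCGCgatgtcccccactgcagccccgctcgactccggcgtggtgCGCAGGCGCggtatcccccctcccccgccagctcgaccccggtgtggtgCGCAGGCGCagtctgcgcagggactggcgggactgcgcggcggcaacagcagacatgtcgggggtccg
UQCRC1: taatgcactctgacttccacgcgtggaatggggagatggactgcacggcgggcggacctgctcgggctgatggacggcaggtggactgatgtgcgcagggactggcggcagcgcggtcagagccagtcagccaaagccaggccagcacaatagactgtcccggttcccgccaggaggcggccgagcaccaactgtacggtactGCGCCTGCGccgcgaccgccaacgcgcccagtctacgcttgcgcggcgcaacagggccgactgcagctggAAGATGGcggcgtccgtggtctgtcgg

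The SDHA window held the NRF1 motif 4 times, at -165, -116, -67 and -18 from the annotated start, each time as CGCAGGCGC. The UQCRC1 window held it at -47 and held the YY1 motif from 23 to 29, just after the start. Over the 69 of 85 subunit genes that could be matched, 22 (31.9%) held the NRF1 motif against 10.95% of all promoters. The ETS motif was held by 26 subunit genes (37.7% against 25.6%) and the YY1 motif by 16 (23.2% against 6.40%). At least 1 of these 3 motifs was present in 45 subunit promoters (65.2%) and in 36.3% of all promoters, although the median GC content was similar at 61.0% and 62.7%. Among the matched subunit genes that rose, 5 of 16 held the NRF1 motif, as did 2 of the 4 that fell. A match in these windows is a description of letters and not of binding.

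Complex IV, cytochrome c oxidase, had 7 of its 14 tested genes higher (50% called, against 58.2% of all genes, 28.2% higher and 30.1% lower). By edgeR on the TMM scale 0 of its genes were lower, although library size alone gave 1 higher and 6 lower. At an unadjusted p under 0.05 and with DESeq2 0 were lower as well, and 4 higher and 0 lower were called by edgeR without replicate 2. With the length offset 3 higher and 0 lower were called, namely NDUFA4L2, COX4I1 and COX7A2L. Its median log2 fold change was 0.16. Besides NDUFA4L2 and COX4I1, COX7A2L rose, a factor that joins complexes III and IV into supercomplexes. It was at 124, 119.7 and 129 CPM untreated and 151, 195 and 161 CPM with r-CRMP2, with no overlap (log2 fold change 0.44, SE 0.12, edgeR adjusted p = 8.0e-05), and without replicate 2 the log2 fold change was 0.34 (edgeR adjusted p = 1.0e-04). With library size alone the COX7A2L call was lost (log2 fold change 0.13, edgeR adjusted p = 0.126). COX7C was next (log2 fold change 0.25, SE 0.10, edgeR adjusted p = 0.00624), and its call remained without replicate 2, at a log2 fold change of 0.16 (edgeR adjusted p = 0.0221), but it was lost with the length offset (log2 fold change 0.022, edgeR adjusted p = 0.809). COX5B (log2 fold change 0.21, edgeR adjusted p = 0.0446) and COX8A (log2 fold change 0.19, edgeR adjusted p = 0.0242) were higher with all libraries but not without replicate 2, where their log2 fold changes were 0.083 (edgeR adjusted p = 0.275) and 0.13 (edgeR adjusted p = 0.0796). Of the 13 other fits, 6 kept the COX5B call and 7 the COX8A call.

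The ubiquitous isoforms COX6A1, COX6B1 and COX7B gave no call, with log2 fold changes of 0.11, 0.079 and 0.058. The tissue-restricted partners were low or not detected in A2780. COX6A2, the muscle form, and COX7B2 had 0 counts in all 6 libraries, which allows up to 3 counts each, and COX8C had between 0 and 3 counts. COX6B2, the testis form, was detected at 7.41, 5.38 and 3.91 CPM untreated and 5.52, 6.22 and 5.44 CPM with r-CRMP2, and the groups overlapped (log2 fold change 0.038, SE 0.27, edgeR adjusted p = 0.878). Its TPM was between 0.0204 and 0.0405 of that of COX6B1. In summed TPM, complex IV was at 4716 ± 44.4 TPM untreated and 4717 ± 276 TPM with r-CRMP2 (SD, n = 3 each), and without NDUFA4L2 at 4386 ± 65.6 TPM untreated and 3952 ± 249.6 TPM with r-CRMP2 (SD, n = 3 each). The sums of both groups were thus nearly equal with NDUFA4L2 and lower with r-CRMP2 without it, while on the TMM-scaled CPM the sum without it was higher with r-CRMP2, at a ratio of 1.15.

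Complex V, ATP synthase, had 3 genes higher and 2 lower of 15 tested (33.3% called, against 58.2% of all genes). Its median was -0.0017, and library size alone gave 0 higher and 13 lower. Without replicate 2 it had 1 higher and 5 lower: ATP5E and ATP5O were lost, and ATP5A1, ATP5D and ATP5G1 were called lower. The length offset likewise gave 1 higher and 5 lower. The catalytic subunits of the F1 head were not called with all libraries. ATP5B, the beta subunit and per length the most abundant member (973 TPM untreated), was at 746, 721 and 742 CPM untreated and 739, 812 and 780.4 CPM with r-CRMP2. ATP5A1, the alpha subunit, was at 480.4, 475 and 495 CPM untreated and 426, 473 and 448 CPM with r-CRMP2. The ATP5B groups overlapped (log2 fold change 0.078, SE 0.04, edgeR adjusted p = 0.290), whereas those of ATP5A1 did not but the change missed the threshold (log2 fold change -0.11, SE 0.05, edgeR adjusted p = 0.150), and without replicate 2 ATP5A1 was called lower, at a log2 fold change of -0.13 (edgeR adjusted p = 0.0452).

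Of the 3 genes that encode the same c-ring subunit, 1 was called with all libraries. ATP5G2 was at 210.3, 223 and 216 CPM untreated and 269.6, 306 and 276 CPM with r-CRMP2, with all treated libraries higher (log2 fold change 0.39, SE 0.06, edgeR adjusted p = 3.2e-05), and without replicate 2 the log2 fold change was 0.35 (edgeR adjusted p = 3.9e-05). ATP5G1 and ATP5G3 had log2 fold changes of -0.16 and -0.054 and were not called, but ATP5G1 was called lower without replicate 2, at a log2 fold change of -0.27 (edgeR adjusted p = 0.00116), and with the length offset (log2 fold change -0.30, edgeR adjusted p = 0.00124). ATP5J, coupling factor 6 of the peripheral stalk, had the lowest log2 fold change of complex V, with values of 35.3, 32.7 and 37.8 CPM untreated and 29.6, 31.0 and 29.4 CPM with r-CRMP2 that did not overlap (log2 fold change -0.23, SE 0.06, edgeR adjusted p = 0.0145). ATP5J2, subunit f, fell with overlapping values (log2 fold change -0.22, SE 0.11, edgeR adjusted p = 0.0289), and the read-through gene ATP5J2-PTCD1, whose interval contains it, fell further, at 42.1, 39.4 and 39.7 CPM untreated and 26.4, 27.5 and 25.3 CPM with r-CRMP2 (log2 fold change -0.61, SE 0.05, edgeR adjusted p = 9.9e-07). The read-through interval also overlaps PTCD1 on the same strand, so reads of these genes cannot be separated with certainty. The ATP5J2 call was kept in 8 of the 13 other fits and was lost with DESeq2. ATP5E (log2 fold change 0.19, edgeR adjusted p = 0.0325), the epsilon subunit, and ATP5O (log2 fold change 0.16, edgeR adjusted p = 0.0450), the stalk subunit that binds F1, were higher with all libraries but not without replicate 2. Of the 13 other fits, 8 kept the ATP5E call and 3 the ATP5O call.

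Among genes that do not encode subunits, ATP5S, coupling factor B, was lower (log2 fold change -0.47, SE 0.16, edgeR adjusted p = 0.0139), with 5.75, 7.01 and 8.37 CPM untreated and 4.73, 5.31 and 5.18 CPM with r-CRMP2. ATP5SL was not called (log2 fold change 0.14, edgeR adjusted p = 0.127), but it was called higher with the length offset and without r-CRMP2 replicate 1. The paralog ATP5L2, which was counted with complex V, had between 0 and 3 counts and was not tested.

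Per length, the members spanned a wide range. In the untreated libraries the median subunit was at 121 TPM in complex I, 107 TPM in complex II, 151 TPM in complex III, 327 TPM in complex IV and 282 TPM in complex V. Among complex I genes the mean untreated level ran from 9.18 TPM for NDUFA5 to 557 TPM for NDUFS6. Members with a higher mean log2 CPM over all 6 libraries, which is not per length, had higher log2 fold changes. Spearman's rho across the 83 genes was 0.52, given as a description since genes of the same libraries are not independent. That mean includes the treated libraries, which also enter the fold change. Across all 16222 genes the same rho was 0.28.

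All 13 mtDNA-encoded subunits of the same complexes were lower by edgeR, where 30.1% of all genes were lower. They were also lower with library size alone and without replicate 2. Their median log2 fold change was -1.20, and CYTB (-1.63), ATP8 (-1.45) and ND3 (-1.43) fell the most. Of 46 assembly factors, which build the complexes without being part of them, 17 were lower and 6 higher (50% called, 58.2% over all genes). Library size alone gave 37 lower and 1 higher. On the TMM scale the median log2 fold change of the assembly factors was -0.16. LYRM7, which helps to insert the Rieske protein into complex III, was at 22.7, 24.0 and 26.3 CPM untreated and 12.9, 11.9 and 11.8 CPM with r-CRMP2 (log2 fold change -0.996, SE 0.07, edgeR adjusted p = 3.3e-08). COA7, a complex IV factor (log2 fold change -0.99, SE 0.10, edgeR adjusted p = 1.1e-07), and TMEM70, an ATP synthase factor (log2 fold change -0.91, SE 0.15, edgeR adjusted p = 4.1e-06), fell to a like extent. The largest rises were in COX20 (log2 fold change 0.62, SE 0.02, edgeR adjusted p = 6.3e-07), which handles the mtDNA-encoded subunit COX2, SDHAF1 (log2 fold change 0.50, edgeR adjusted p = 5.7e-05), a complex II factor, and COX15 (log2 fold change 0.42, edgeR adjusted p = 3.6e-05), which takes part in haem a synthesis. The SDHAF1 and COX15 calls were lost with library size alone.

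Of 19 electron carriers and quinone-linked enzymes, 5 were lower and 2 higher (16 lower and 0 higher with library size alone). ETFDH (log2 fold change -0.71, edgeR adjusted p = 1.4e-06), which delivers electrons from fatty acid oxidation to ubiquinone, PDSS1 (log2 fold change -0.70, edgeR adjusted p = 0.00253), an enzyme of ubiquinone synthesis, and DHODH (log2 fold change -0.36, edgeR adjusted p = 0.00755), of pyrimidine synthesis, fell. PDSS2 (log2 fold change 0.39, edgeR adjusted p = 0.00685), the partner of PDSS1, and ETFA (log2 fold change 0.17, edgeR adjusted p = 0.0389), an electron transfer flavoprotein, rose. The ETFA call was lost in 7 of the 13 other fits, among them the fit without replicate 2, where its log2 fold change was 0.12 (edgeR adjusted p = 0.102). The DHODH call was lost without untreated replicate 3, and the PDSS2 call without untreated replicate 2 and with library size alone. Cytochrome c itself, CYCS, was at 107, 96.0 and 102 CPM untreated and 98.9, 112 and 96.4 CPM with r-CRMP2 and was not called (log2 fold change 0.011, edgeR adjusted p = 0.906).

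Among 9 transcription regulators of respiratory genes, 5 were lower and 1 higher (8 lower and 1 higher with library size alone). The coactivators PPARGC1B (log2 fold change -0.70, edgeR adjusted p = 1.0e-04) and PPRC1 (log2 fold change -0.44, edgeR adjusted p = 6.3e-05) and the GABP subunit GABPB1 (log2 fold change -0.33, edgeR adjusted p = 0.00850) fell the most, and YY1 rose, at 181, 166 and 168 CPM untreated and 240.4, 250.1 and 258 CPM with r-CRMP2 (log2 fold change 0.54, SE 0.05, edgeR adjusted p = 4.3e-07). NRF1 itself was not called (log2 fold change 0.047, edgeR adjusted p = 0.725). Of 9 genes that link HIF-1 to mitochondria, 6 were higher and 1 lower (4 lower and 5 higher with library size alone). MXI1 (log2 fold change 1.54, edgeR adjusted p = 2.0e-12), a MYC antagonist, PDK1 (log2 fold change 1.46, edgeR adjusted p = 3.3e-12), the kinase that inhibits pyruvate dehydrogenase, and BNIP3L (log2 fold change 1.10, edgeR adjusted p = 6.5e-11), a mitophagy receptor, had the largest log2 fold changes, and CHCHD4 (log2 fold change -0.21, edgeR adjusted p = 0.0456), of the intermembrane space import pathway, was the lower one. The CHCHD4 call was lost in 10 of the 13 other fits, including DESeq2 and the fit without replicate 2, where its log2 fold change was -0.20 (edgeR adjusted p = 0.0737). The GABPB1 call was lost with the length offset. These counts stand beside the 28.2% higher and 30.1% lower over all genes.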

How the data were processed

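Polyadenylated RNA from 3 untreated and 3 r-CRMP2-treated A2780 libraries was sequenced on an Illumina instrument with paired-end reads. The authors deposited, for each library, the raw count of reads on each gene without normalization and a TPM value. The TPM followed from the counts and the deposited gene lengths (largest difference 4.72e-06). The submitters' processing notes name FastQC, HISAT2, DESeq2 and build hg19. The counting tool and any use of strand are not given in the sources used here. Gene positions are as deposited.

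The groups' counts were compared in R 4.3.3 by the quasi-likelihood test of edgeR (version 4.0.16, with limma 3.58.1) after TMM scaling and edgeR's filter on low counts, fitted over 16222 genes with Benjamini-Hochberg adjustment. The threshold was 0.05. SEs come from the spread of log2 CPM with a prior count of 2. With 21888530 to 25711353 counts per library, a gene at 0 may have up to 3 counts. Other fits used RLE factors, library totals without factors, a length offset (loess), a replicate block, no filter, a minimum of 10 counts in every library, 5 libraries in place of 6, and DESeq2 (version 1.42.0). 2 further ones, a level of at least 10 CPM and values without r-CRMP2 replicate 2, were chosen after seeing the data. 

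The members, the gene lists and the tests were chosen with earlier results of these data known. Named genes were the paralog pairs, catalytic core subunits, the highest and lowest log2 fold change of each complex, the 5 largest rises and falls, and the 3 largest rises and falls of each related list. 1 gene that this rule covers is not reported here. The other called members and genes given for contrast (ATP5G1, ATP5G3, ATP5SL, ATP5L2, CYCS, NRF1) were named after their values were seen. Promoters are from RefSeq (GRCh38.p14); the first listed start was used, and 69 of 85 subunit genes were matched by symbol or synonym.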

Additional observations from a re-analysis of the deposited data

How the results depend on the processing

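Of the 27 called members, 9 kept call and direction in all 13 alternative fits (NDUFA4L2, SDHA, UQCRC1, NDUFV3, NDUFC2, NDUFB9, UQCRFS1, NDUFC2-KCTD14 and ATP5J2-PTCD1), and 14 did so when library size alone was set aside. RLE size factors gave 18 higher and 9 lower, DESeq2 18 and 8, no filter 13 and 9, and at least 10 counts in every sample 13 and 12. Library size alone gave 3 and 63, with a median of -0.29, and the length offset 12 and 23. Requiring a log2 fold change over 1 left 1 higher and 0 lower. Leaving out each library gave 9 to 22 higher, 6 to 22 lower and medians from -0.044 to 0.087. Without untreated replicate 2 the counts were 9 and 10, without untreated replicate 3 they were 11 and 6, and without r-CRMP2 replicate 2 they were 10 and 22. The NDUFA4L2 minus NDUFA4 difference changed by 1.45 to 1.70 when libraries were left out and by 1.596 with a prior count of 0.5, and COX7A1 minus COX7A2 by -0.99 to -0.092 and -0.71. Summed TPM gave ratios of r-CRMP2 to untreated of 0.774, 1.10, 0.896, 1.0003 and 0.811 for complexes I to V, and summed TMM-scaled CPM gave 0.996, 1.44, 1.14, 1.35 and 1.02. With library size alone, the log2 fold change turned negative for these genes, each called in at least 1 of both fits: COX7A2 -0.092, COX6A1 -0.20, COX6B1 -0.23, COX7B -0.25, COX8A -0.12, UQCRH -0.16, SDHB -0.31, NDUFV1 -0.22, NDUFV2 -0.29, NDUFS8 -0.21, UQCRC2 -0.16, ATP5B -0.23, ATP5SL -0.17, ATP5E -0.12, ATP5O -0.15, COX5B -0.11, COX7C -0.059, NDUFA10 -0.027, NDUFB4 -0.053, NDUFC1 -0.10, UQCRB -0.080, ETFA -0.15, CYCS -0.30, NRF1 -0.26. By the same criterion the length offset turned ATP5E to -0.027. Named genes called in neither fit also changed sign, 2 with library size alone and 9 with the length offset. The cause of these changes was not tested. The replicate block gave 15 higher and 10 lower. Deviations of same-numbered libraries correlated at -0.021, 0.00380 and -0.025, and no r-CRMP2 library correlated best with its own number, so the numbers were not taken as a pairing. Depth limits COX4I2, COX7A1, COX6A2, COX7B2, COX8C and ATP5L2, which had at most 10 counts in any library.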

Other observations

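Genes that were not in the lists above were examined after the members' values had been seen, from general knowledge of the inner membrane. The carriers that exchange ATP, ADP and phosphate, with the VDAC pores of the outer membrane, were mostly higher: 5 of 7 passed the test by edgeR and 0 fell (0 lower at an unadjusted p under 0.05 and 0 by DESeq2), against 28.2% higher and 30.1% lower over all genes tested. VDAC2 was at 224, 219 and 221 CPM untreated and 376, 449.6 and 388 CPM with r-CRMP2, with no overlap between groups (log2 fold change 0.87, SE 0.08, edgeR adjusted p = 3.5e-09). VDAC1 (log2 fold change 0.54, SE 0.07, edgeR adjusted p = 1.2e-06) and the ADP/ATP carriers SLC25A4 (log2 fold change 0.49, edgeR adjusted p = 2.6e-04), SLC25A6 (log2 fold change 0.44, edgeR adjusted p = 1.1e-05) and SLC25A5 (log2 fold change 0.28, edgeR adjusted p = 9.1e-04) also rose, and the phosphate carrier SLC25A3 (log2 fold change 0.14, edgeR adjusted p = 0.0626) and VDAC3 (log2 fold change -0.036, edgeR adjusted p = 0.660) were not called. With library size alone 2 of the 7 were higher and 2 lower, and SLC25A3 was called higher by DESeq2 and with the length offset.

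Of 11 genes of the inner membrane import machinery, 5 were lower and 2 higher, a share called close to the 58.2% of all genes (9 lower and 0 higher with library size alone). TIMM22, the channel for carrier proteins, was at 16.3, 17.5 and 16.9 CPM untreated and 11.05, 10.5 and 9.97 CPM with r-CRMP2 (log2 fold change -0.68, SE 0.05, edgeR adjusted p = 8.5e-06), and TIMM23, the channel for proteins with a presequence, also fell (log2 fold change -0.45, SE 0.12, edgeR adjusted p = 6.2e-04), whereas TIMM17B rose (log2 fold change 0.48, SE 0.07, edgeR adjusted p = 2.0e-05). Of 10 genes that shape the cristae, 2 were lower and 2 higher, again beside 58.2% of all genes called (7 lower and 0 higher with library size alone), and the prohibitins, which form a joint ring, moved apart: PHB fell (log2 fold change -0.30, SE 0.05, edgeR adjusted p = 4.0e-04) and PHB2 rose (log2 fold change 0.29, SE 0.06, edgeR adjusted p = 8.7e-04). That difference between both genes was not tested. The TIMM17B and PHB2 calls were lost with library size alone. None of 4 respiratory chain genes with symbols outside the name rule was called by edgeR or had an unadjusted p under 0.05 (with library size alone all 4 were called lower): CYC1, cytochrome c1 of complex III (log2 fold change 0.023, edgeR adjusted p = 0.780), the ATP synthase inhibitor ATPIF1 (log2 fold change -0.050, edgeR adjusted p = 0.585), USMG5 (log2 fold change 0.074, edgeR adjusted p = 0.535) and C14orf2 (log2 fold change 0.095, edgeR adjusted p = 0.282).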
